A study of Mus musculus with 4 samples.

Results

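The genes that form complement component C1q (C1qa, C1qb and C1qc) and 7 genes commonly used to mark tissue-resident macrophages (Mrc1, Folr2, Lyve1, Cd163, Stab1, Pf4 and Cbr2) were followed by cell class and day in 4 single-cell libraries of the mouse carotid artery. The 10 genes were set by a list of names, drawn up with earlier results of these data known, out of 31053 genes listed and 20506 with at least 1 unique molecular identifier (UMI, a tag that marks a single captured RNA molecule). Macrophages were gated as cells with a UMI in at least 2 of 4 genes, Cd68, Csf1r, Adgre1 and Fcgr1, none of which is among the 10, that also lay in a monocyte/macrophage-like or unnamed cluster. As the 10 genes took part in the clustering, the gate is not independent of them. It left out 333 dendritic-like and 37 neutrophil-like cells with 2 gate genes, and the gate genes alone held 581, 1048 and 154 cells on days 3, 7 and 14.

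C1q is the recognition part of the classical complement pathway. Its A, B and C chains assemble together, bind antibody complexes and dying cells, and start the cascade by way of the proteases C1r and C1s. Unlike most complement proteins, which the liver makes, C1q is made largely by macrophages and dendritic cells. In the artery wall, resident macrophages lie mainly in the adventitia, and many carry scavenger and endocytic receptors such as the mannose receptor (Mrc1), folate receptor beta (Folr2), the hyaluronan receptor LYVE-1 (Lyve1), the haemoglobin-haptoglobin receptor (Cd163) and stabilin-1 (Stab1). Pf4 encodes platelet factor 4, a chemokine that platelets store and that some macrophages also express, and Cbr2 encodes a carbonyl reductase. Monocytes that enter injured tissue can also come to express such genes as they mature, so none of the 10 genes identifies a cell's origin on its own.

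The series comprised C57BL/6 mice aged 11 weeks before injury, with 1 library of carotid tissue taken before wire injury (day 0) and 1 library at each of 3, 7 and 14 days after the injury. A wire drawn through the lumen removes the endothelium in this model. Per the methods, the mice were male, several arteries made up each pool, thrombosed vessels were discarded, and the tissue was digested and cleared of dead cells before droplet capture with a 3′ kit. No genotype, diet or drug separated the groups, so day after injury was the only variable in the labels, and a difference between days cannot be told apart from a difference between libraries.

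The libraries held 333, 1689, 3001 and 1138 cell barcodes on days 0, 3, 7 and 14, and 2672722, 18989081, 27973418 and 13329564 UMIs. Barcodes were shared between libraries, 152 between days 0 and 3, 64 between days 7 and 14 and 1 between days 3 and 7. In all but 3 of the shared barcodes, the UMI totals of a pair stood at a nearly fixed ratio, with medians of 21.45, 109.3 and 89.61 for the 3 directions in which it occurred. The 214 shallow copies were removed, and the cause of the sharing was not tested. After filtering, 281, 1405, 2693 and 1029 cells were kept, with median UMI counts of 7959, 5458, 6317 and 10764. Clusters were assigned to 9 classes by marker genes, each name standing for resemblance only, and 509 cells stayed unnamed. No test between days was possible with 1 library per day, and all intervals below are 95% intervals that cover counting error only.

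The gate held 2 of 281 cells on day 0 (0.712%, exact binomial interval 0.0863 to 2.55), 439 cells on day 3 (31.25%, 28.8 to 33.7), 807 on day 7 (30.0%, 28.2 to 31.7) and 145 on day 14 (14.1%, 12.02 to 16.4). Gated cells had median UMI counts of 9899, 9925 and 9293 on days 3, 7 and 14, so their depth was close between these days. On day 0, macrophages were at the edge of what the library could show, and the comparisons between days below start at day 3. The gate genes themselves were measured at 464.8, 459.6 and 494.7 CPM (UMIs of the gene scaled to the total UMIs of the gated cells summed) for Cd68 on days 3, 7 and 14, and at 497.0, 555.4 and 609.1 CPM for Csf1r, the receptor for macrophage colony-stimulating factor. Adgre1, which encodes F4/80, stood at 359.2, 285.3 and 401.0 CPM, and Fcgr1, an Fc receptor, at 411.1, 304.4 and 207.4 CPM. None of these 4 passed the 2-fold rule described below, Fcgr1 coming nearest with a log2 ratio of -0.95 from day 3 to day 14. Different clusters supplied the class on different days, which bears on every level below. A cluster led by Lyz2, Pf4 and Ccl6 gave 267, 61 and 1 cells on days 3, 7 and 14, one led by Lyz2, Cd74 and Il1b gave 57, 399 and 14, one led by Ctsk, H2-Ab1 and Cd74 gave 83, 159 and 30, and one led by C1qa, Apoe and C1qb gave 84, 271 and 140. As the 10 genes took part in this first clustering, their levels by class are given as a description.

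The regions upstream of 8 of the 10 genes were matched in the RefSeq promoter set for GRCm38.p6, and 4 are printed here, those of the neighbouring genes C1qb and C1qc, and those of Pf4 and Cbr2, which had the lowest ratios of day 14 to day 3 among the members called. The 3 C1q genes lie next to each other on chromosome 4 in the order C1qb, C1qc and C1qa, with no other gene between them in this annotation. Each line gives the 250 bases before the annotated start of the gene, 5′ to 3′ on the strand of the gene. Capitals mark AGGAAG on either strand (read as CTTCCT on the opposite one), the core bound by PU.1, a transcription factor of the ETS family that macrophages need. The windows are chr4:136886201-136886450 on the minus strand for C1qb, chr4:136892915-136893164 on the minus strand for C1qc, chr5:90772185-90772434 on the plus strand for Pf4 and chr11:120732022-120732271 on the minus strand for Cbr2.
C1qb: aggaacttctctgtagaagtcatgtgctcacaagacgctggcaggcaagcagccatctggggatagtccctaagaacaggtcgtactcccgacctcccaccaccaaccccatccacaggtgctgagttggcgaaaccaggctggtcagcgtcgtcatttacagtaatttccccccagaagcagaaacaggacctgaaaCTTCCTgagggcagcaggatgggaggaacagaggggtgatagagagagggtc
C1qc: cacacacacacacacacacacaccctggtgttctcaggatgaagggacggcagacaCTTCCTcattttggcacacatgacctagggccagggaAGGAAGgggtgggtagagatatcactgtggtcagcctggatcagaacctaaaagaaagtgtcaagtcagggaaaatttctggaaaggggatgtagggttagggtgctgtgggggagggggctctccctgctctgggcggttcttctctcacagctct
Pf4: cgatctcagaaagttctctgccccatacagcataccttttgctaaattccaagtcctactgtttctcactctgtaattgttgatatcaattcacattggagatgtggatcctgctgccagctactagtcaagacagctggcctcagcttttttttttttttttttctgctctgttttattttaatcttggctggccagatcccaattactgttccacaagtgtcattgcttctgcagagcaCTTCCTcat
Cbr2: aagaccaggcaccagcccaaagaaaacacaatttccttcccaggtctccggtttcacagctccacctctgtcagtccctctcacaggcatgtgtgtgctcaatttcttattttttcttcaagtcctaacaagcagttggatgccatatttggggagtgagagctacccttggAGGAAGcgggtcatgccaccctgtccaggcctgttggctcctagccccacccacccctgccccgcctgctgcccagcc

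The AGGAAG core occurred once in the window of C1qb, its first printed base lying 52 bases before the start, and 2 times in that of C1qc, the nearer copy beginning 157 bases before it. Pf4 and Cbr2 each had 1 copy, beginning 9 and 78 bases before the start. Among the other members, Mrc1 had 3 copies, Stab1 had 1, the 2 annotated starts of Folr2 had 2 and 1, and the window of Cd163 held none. The letters are common, since 29.5% of 32851 upstream windows of this length held them. Of the other motifs searched on both strands, the AP-1 site TGANTCA was found at 1 Folr2 start only (6.75% of all windows held it). The MAF half-site TGCTGAC (3.81% of all windows) and TATAAA (12.4%) were in none of the members' windows. A match describes letters in the sequence and not a bound site, and a missing match says only that the letters are not in the window.

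In gated macrophages, C1q transcripts stood higher on each later day, whereas Mrc1, Folr2, Stab1, Pf4 and Cbr2 were at their highest on day 3. A gene was called higher or lower when its level differed at least 2-fold after 10 CPM were added to both days, given at least 20 UMIs over both libraries. All 10 members reached that number of UMIs in each comparison. From day 3 to day 7, 0 of 10 members were called higher (1.26% of all genes tested) and 5 lower (0.774% of all genes), namely Mrc1, Folr2, Stab1, Pf4 and Cbr2. From day 3 to day 14, C1qa and C1qc were called higher (2.51% of all genes), and Mrc1, Folr2, Pf4 and Cbr2 lower (2.43% of all genes). From day 7 to day 14, no member was called in either direction, beside 0.773% of all genes higher and 1.08% lower. These comparisons share libraries, so they are not separate pieces of evidence. The median log2 ratio of the 3 C1q genes was 0.29 from day 3 to day 7, 1.02 from day 3 to day 14 and 0.73 from day 7 to day 14, and that of the other 7 was -1.48, -1.0 and 0.38. Over all genes tested the medians were -0.07, -0.10 and -0.01.

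**Figure D1:**
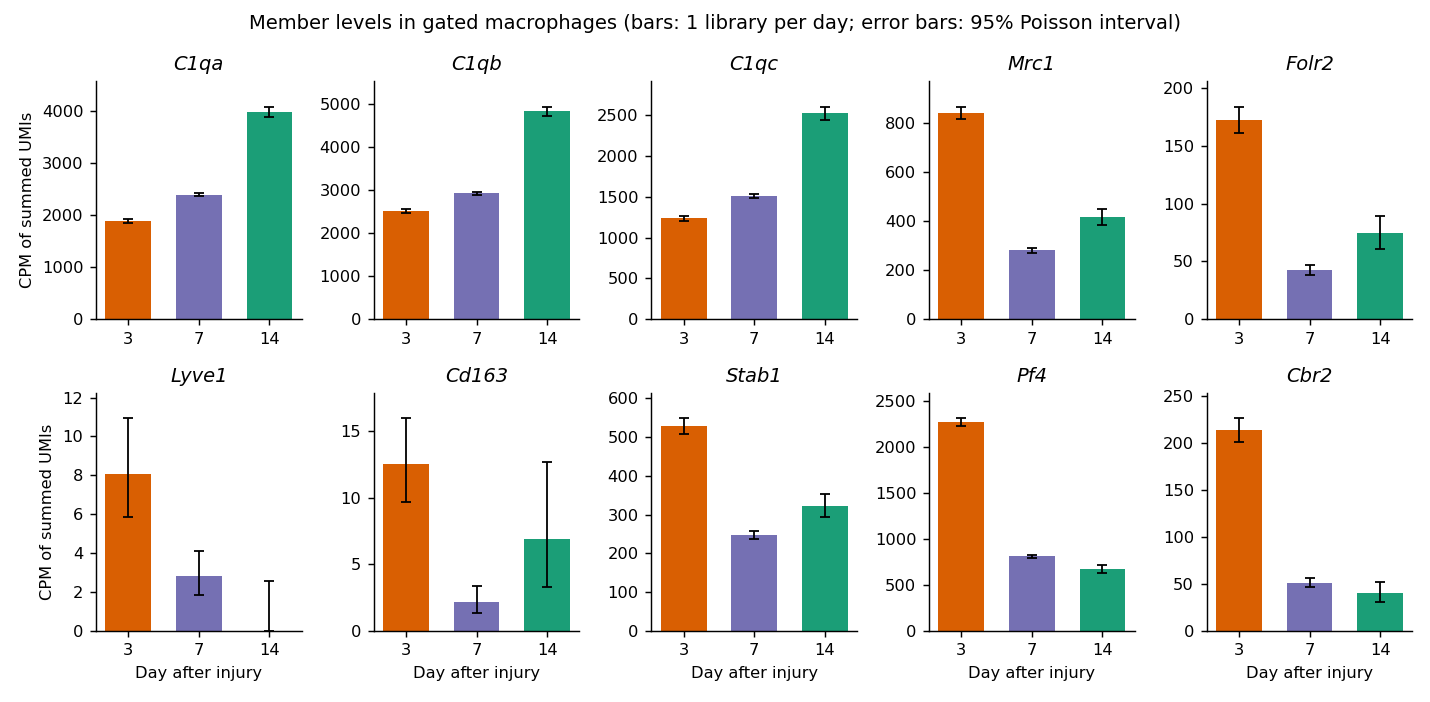
Level of each of the 10 genes in gated macrophages, in CPM of summed UMIs (vertical axis, a scale of its own per gene), against day after injury (439, 807 and 145 cells). Each bar is 1 library and the error bar is the 95% Poisson interval. The C1q genes have their highest bar on day 14, and Mrc1, Folr2, Stab1, Pf4 and Cbr2 on day 3.

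C1qa, which encodes the A chain, was measured at 1886 CPM on day 3 (Poisson interval 1849 to 1924), 2384.5 on day 7 (2353 to 2416) and 3975 on day 14 (3873 to 4079). C1qb, the B chain, was at 2508 (2465 to 2551), 2931.5 (2897 to 2967) and 4830 CPM (4717 to 4944). C1qc, the C chain, was at 1236 (1206 to 1267), 1510 (1485 to 1536) and 2523 CPM (2442 to 2606). For each chain, the intervals of the 3 days did not overlap, and most of the difference lay between days 7 and 14. The ratio of day 14 to day 3 was 2.11 for C1qa (2.04 to 2.18), 1.93 for C1qb (1.87 to 1.98) and 2.04 for C1qc (1.96 to 2.13). All 3 ratios lay close to 2, the value at which a gene is called, so the calls moved with the settings. Requiring 3 of the 4 gate genes left no C1q gene called from day 3 to day 14, whereas keeping cells of every class that passed the gate genes gave log2 ratios of 1.54, 1.40 and 1.48 for C1qa, C1qb and C1qc. The direction was the same under all 17 alternatives run for these 3 genes and each pair of days.

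The proportions of the 3 chains differed by at most a few percentage points between days 3, 7 and 14. Of all C1q UMIs in gated cells, C1qa gave 33.5%, 34.9% and 35.1% on days 3, 7 and 14, C1qb gave 44.5%, 42.9% and 42.6%, and C1qc gave 22.0%, 22.1% and 22.3%. The C1qb share was lower on day 14 (41.9 to 43.4) than on day 3 (43.97 to 45.1), and the C1qc intervals overlapped. These shares rest on 29226, 62966 and 16441 UMIs. A 3′ library does not give levels per length, so the shares are compared between days and not between chains. In dendritic-like cells the chains gave 29.6%, 49.4% and 21.1% of 3648 C1q UMIs. In the 2 gated cells of day 0 they gave 38.5%, 31.7% and 29.8% of 265 UMIs.

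Of the C1q UMIs in the cells kept, gated macrophages held 95.3% for C1qa, 94.1% for C1qb and 95.1% for C1qc over the 4 libraries. As these genes took part in the clustering behind the gate, such shares are partly built in and serve as a description. By class, monocyte/macrophage-like cells had 2268, 2840 and 1448 CPM of C1qa, C1qb and C1qc, dendritic-like cells 142.7, 238.6 and 101.7, and unnamed cells, mostly of shallow clusters, 116, 200 and 68.5. Neutrophil-, T cell-, NK cell- and B cell-like cells lay between 5.92 and 37.4 CPM for the 3 genes, and endothelial-, smooth muscle- and fibroblast-like cells between 2.26 and 11.9. Free RNA was not measured, so its part in these low levels was not tested. After thinning to 1000 UMIs, C1qb was seen in 8.44% of dendritic-like cells (6.22 to 11.1), against 2.00% of T cell-like cells (1.004 to 3.56). Within the dendritic-like class, a cluster led by Cd74 and H2-Eb1 held 1071 C1qa UMIs in 450 cells (161.0 CPM). A cluster of 88 cells led by Ccl5, Cd74, H2-Eb1 and Ccr7 held 7 C1qa UMIs (7.77 CPM, 3.13 to 16.0). The former was also the one in which 73.6% of cells had a UMI in at least 2 gate genes, against 2.27% in the latter, so the border between it and the macrophages rests on the cluster name. By the marker rule that cluster passed 12 monocyte/macrophage and 6 dendritic markers, and it was named for Cd209a, its only marker of either list among its 10 leading genes.

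**Figure D2:**
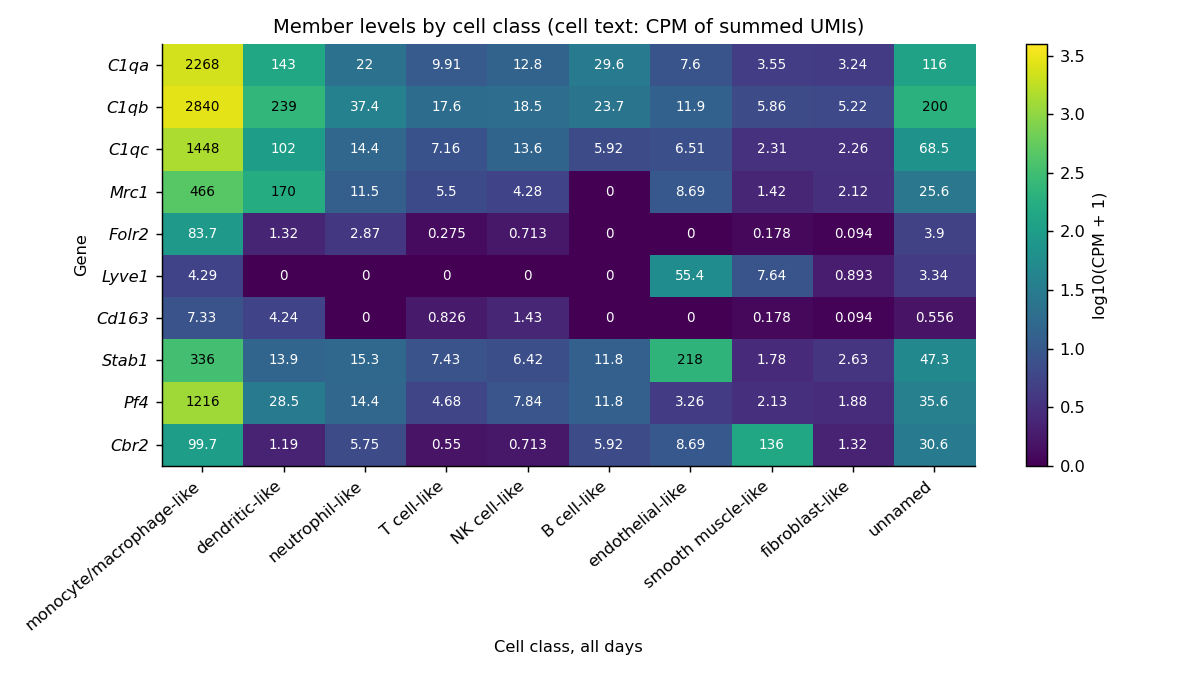
Levels of the 10 genes (rows) in each cell class over all days (columns), coloured by log10(CPM + 1) and labelled with the CPM of summed UMIs. The monocyte/macrophage-like column is the highest for every gene except Lyve1, highest in endothelial-like cells, and Cbr2, highest in smooth muscle-like cells.

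Mrc1, Folr2 and Stab1, the receptor genes detected at depth, shared the same course, high on day 3, lowest on day 7 and in between on day 14. Mrc1 stood at 841.6 CPM on day 3 (816.8 to 866.9), 280.6 on day 7 (269.9 to 291.6) and 415.5 on day 14 (383.0 to 450.0). Folr2 stood at 172.6 (161.5 to 184.3), 42.5 (38.4 to 46.9) and 74.4 CPM (61.0 to 89.8). Stab1, a receptor that takes up modified lipoproteins and matrix fragments, stood at 528.4 (508.8 to 548.5), 246.4 (236.4 to 256.8) and 323.1 CPM (294.5 to 353.7). The intervals of neighbouring days were apart for each of the 3 genes. Relative to day 3, day 7 had 0.333 times the level of Mrc1 (0.317 to 0.350), 0.246 times that of Folr2 (0.218 to 0.278) and 0.466 times that of Stab1 (0.441 to 0.493), and day 14 had 0.494 (0.453 to 0.538), 0.431 (0.350 to 0.527) and 0.612 times (0.553 to 0.675). Stab1 was thus not called on day 14, and Mrc1 only just, with a log2 ratio of -1.0. When each cell was given equal weight, the day 14 log2 ratios to day 3 were -0.23 for Mrc1, -0.51 for Folr2 and 0.09 for Stab1, which ended both calls. Keeping the gated dendritic-like cells also ended them, with log2 ratios of -0.90 for Mrc1 and -0.78 for Folr2, and so did the gate genes alone (-0.74 and -0.64). Requiring 3 gate genes ended the call of Mrc1 (-0.98), and clustering at resolution 2 that of Folr2 (-0.97). Leaving out cell cycle-led clusters gave -0.81 for Mrc1 and -1.06 for Folr2. The Stab1 call on day 7 (-1.07) ended under equal weight (-0.98), with gated dendritic-like cells kept (-0.99) and with the gate genes alone (-0.90).

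Outside the gate, 13.8% of Mrc1 UMIs came from cells named dendritic-like, nearly all in the cluster led by Cd74 and H2-Eb1, whose marker tally is given above (1276 UMIs in 450 cells, against 4 in 88 cells of the cluster with Ccr7). There too the level was highest on day 3, at 346.7 CPM, against 71.3 on day 7 and 75.2 on day 14. Folr2 had the largest share of its UMIs in gated cells among the members, 97.8%, and stood at 1.32 CPM in dendritic-like cells. It too took part in the clustering behind the gate. Stab1 was found in endothelial-like cells as well as macrophages, at 218.3 CPM (189.1 to 250.6) over 59 cells, and on day 7 at 246.7 CPM in 44 cells, 25 of which had a UMI. After thinning to 1000 UMIs, 25.5% of endothelial-like cells still had a Stab1 UMI (13.9 to 40.4), against 0.546% of T cell-like cells (0.113 to 1.59). Those 59 cells gave 3.27% of all Stab1 UMIs.

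Cd163 and Lyve1, often the defining genes of resident macrophages, had the fewest UMIs of the 10 members. Cd163 stood at 12.5 CPM on day 3 (65 UMIs in 30 cells), 2.17 on day 7 (20 UMIs) and 6.89 on day 14 (10 UMIs in 5 cells). The day 7 level was 0.173 times that of day 3 (0.0994 to 0.290), and the interval of day 14 to day 3 included no difference (0.252 to 1.08). Lyve1 stood at 8.09 CPM on day 3 (5.83 to 10.9) and 2.82 on day 7 (1.84 to 4.13). On day 14 it was at 0 UMIs, for which 3 UMIs give a limit of 2.07 CPM, and the interval of its ratio to day 3 reached up to 0.328. The 42 Lyve1 UMIs of day 3 came from 16 cells, 14 of them from 1 cell, and on day 7 a single cell held 15 of 26. Neither gene was called between any pair of days. With 1 CPM added, the log2 ratio of day 7 to day 3 was -2.09 for Cd163 and -1.25 for Lyve1. That of day 14 to day 3 was then -0.78 for Cd163 and -3.18 for Lyve1, and that of day 14 to day 7 was 1.32 and -1.93, so all of these but the Cd163 value of day 14 to day 3 passed the 2-fold rule with 1 CPM added.

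Most Lyve1 transcripts lay outside the macrophages. The gate held 37.2% of them, endothelial-like cells 26.7%, smooth muscle-like cells 22.5% and fibroblast-like cells 9.95%. In endothelial-like cells 51 UMIs came from 6 cells, and on day 3 as many as 33 came from 2 of 4 cells. Lyve1 also marks lymphatic endothelium. Of the lymphatic genes Prox1, Mmrn1, Ccl21a, Flt4 and Reln, only Flt4 had UMIs in the 59 endothelial-like cells, in 9 of them, and their part in the Lyve1 level was not tested. The smooth muscle-like cells held 43 Lyve1 UMIs in 23 cells. Dendritic-like cells gave 19.5% of Cd163 UMIs, and 18 of the 22 dendritic-like cells with a Cd163 UMI had 2 gate genes.

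Pf4 fell from 2268 CPM on day 3 (2228 to 2310) to 809.4 on day 7 (791.1 to 828.0) and stood at 673.8 on day 14 (632.2 to 717.4). The ratio to day 3 was 0.357 on day 7 (0.347 to 0.367) and 0.297 on day 14 (0.278 to 0.317), and Pf4 was lower on both days under every alternative run. Its course from day 7 to day 14 was not settled, since the log2 ratio of -0.26 became 0.59 with equal weight per cell and 0.11 without cell cycle-led clusters. A single day 7 cell with 110620 UMIs held 1293 Pf4 UMIs, 17.3% of that day's total, and without it the day 7 level was 677.4 CPM. In total 97.4% of Pf4 UMIs lay in gated cells.

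As Pf4 is also a platelet gene, platelet genes were measured in the same cells. Ppbp, Itga2b, Gp9, Gp1bb and Treml1 summed to 84.6, 19.5 and 2.76 CPM in gated cells on days 3, 7 and 14, with 3, 3 and 2 of the 5 genes seen and Gp9 at 0 on each day. Haemoglobin genes summed to 638.0, 93.5 and 9.65 CPM. Both thus moved in the same direction as Pf4. Cells with a UMI of a platelet gene carried more Pf4, at 6173, 5450 and 2116 CPM in 50, 25 and 4 cells. In the 389, 782 and 141 cells without one, Pf4 stood at 1408, 528.8 and 628.8 CPM. There, the ratio to day 3 was 0.376 on day 7 (0.362 to 0.391) and 0.447 on day 14 (0.416 to 0.480), log2 ratios of -1.40 and -1.15. The platelet genes were too low for a cell without their UMIs to be taken as free of platelet RNA. The part of platelets in the Pf4 level was thus not tested.

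Cbr2 showed the steepest difference of the members called, with 213.2 CPM on day 3 (200.9 to 226.2), 50.9 on day 7 (46.4 to 55.8) and 39.96 on day 14 (30.3 to 51.7). The ratios to day 3 were 0.239 (0.214 to 0.266) and 0.187 (0.141 to 0.244), both called under every alternative run. The intervals of days 7 and 14 overlapped, with a ratio of 0.784 (0.586 to 1.03). Over all days, 64.6% of Cbr2 UMIs came from gated macrophages and 30.1% from smooth muscle-like cells. By day, gated macrophages gave 37.1%, 72.3%, 67.8% and 19.9% on days 0, 3, 7 and 14. Smooth muscle-like cells gave 62.9%, 24.9%, 19.8% and 78.1%. The level in smooth muscle-like cells was 224.0 CPM on day 0 (22 UMIs in 11 cells), 139.5 on day 3, 90.5 on day 7 and 177.5 on day 14. It was found in 121 of 161 cells of the cluster led by Acta2, Tagln and Myh11 (199.1 CPM, 183.6 to 215.5). After thinning, 9.61% of smooth muscle-like cells had a Cbr2 UMI (6.12 to 14.2), against 0 of 549 T cell-like cells, which allows a share of up to 0.546%. Smooth muscle-like cells were thus a second source of Cbr2 in these libraries, and gave more of its UMIs than macrophages on days 0 and 14. Their level was of the same order as that of day 3 macrophages, and on day 14 it stood above that of macrophages (177.5 against 39.96 CPM).

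The share of macrophages with at least 1 UMI was compared after every cell had been thinned to 1000 UMIs, which left out 2, 17 and 11 gated cells of days 3, 7 and 14. C1qb was seen in 55.6%, 49.7% and 79.9% of gated cells (unthinned 69.7%, 60.8% and 86.9%), against 2.00% of T cell-like cells, whose median UMI count was 5524.5. C1qa was seen in 45.8%, 42.8% and 78.4% and C1qc in 43.0%, 40.5% and 70.9%. For each chain the intervals of days 3 and 7 overlapped, and that of day 14 lay above both. Mrc1 was seen in 38.4%, 17.5% and 24.6%, Stab1 in 28.2%, 15.6% and 28.4%, and Pf4 in 39.6%, 17.1% and 34.3%. Folr2 was seen in 11.0%, 2.53% and 6.72%, and Cbr2 in 11.7%, 2.79% and 5.97%. These 5 genes had their lowest share on day 7, and the intervals of days 3 and 14 overlapped for Folr2, Stab1, Pf4 and Cbr2 and were apart for Mrc1 (33.9 to 43.2 and 17.6 to 32.8). Cd163 was seen in 1.60%, 0.127% and 0.746%, and Lyve1 in 0.229% on day 3 and in no thinned cell on days 7 and 14.

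**Figure D3:**
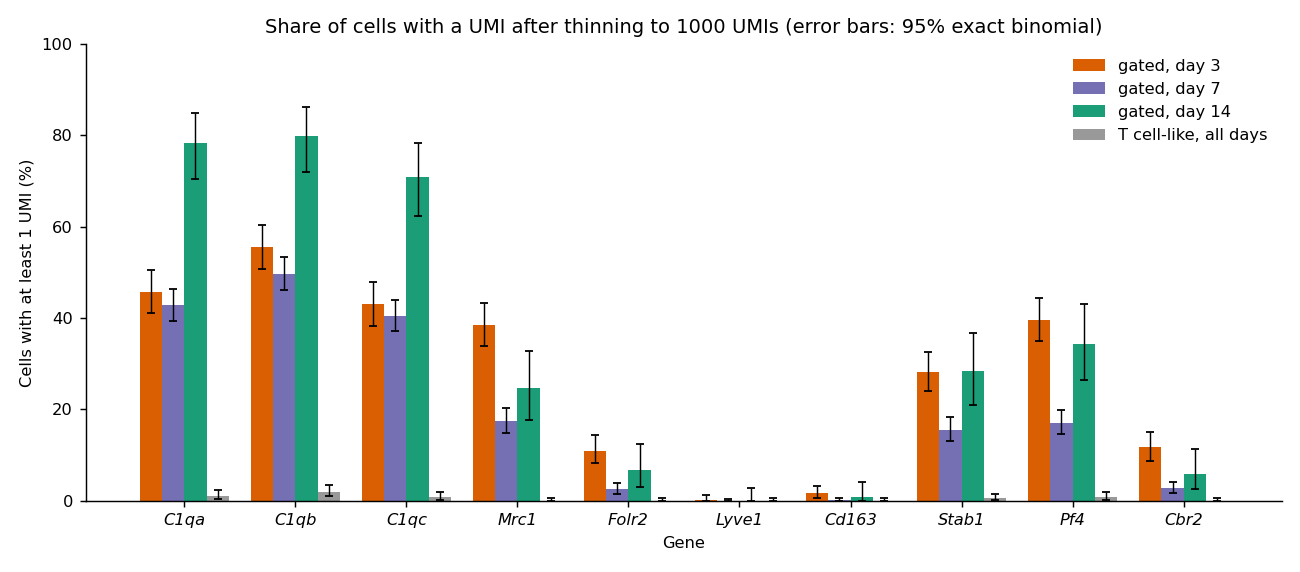
Percent of cells with at least 1 UMI of each gene after thinning to 1000 UMIs, in gated macrophages of days 3, 7 and 14 (437, 790 and 134 cells) and in T cell-like cells of all days (549 cells), with exact binomial 95% intervals. The C1q genes stand highest on day 14, whereas Mrc1, Folr2, Stab1, Pf4 and Cbr2 are at their lowest on day 7.

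Among cells with at least 2000 UMIs (424, 751 and 127), C1q differed in spread between days. The median cell had 1456, 853.1 and 5131 CPM of C1qb and 707.1, 189.7 and 4192 CPM of C1qa on days 3, 7 and 14. The 10% of cells richest in C1qa held 46.3%, 52.3% and 31.9% of its UMIs. On day 7, C1qa was thus the most unevenly spread, with a median cell below that of day 3 although the summed level was above it. Folr2 had a UMI in 165 of 424, 100 of 751 and 25 of 127 of these cells, and Cbr2 in 152, 106 and 18, too few for such a share to be read. For Pf4 the share in the richest 10% of cells was 61.1%, 86.1% and 57.2%.

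At 1000 UMIs per cell, any C1q chain was found in 62.7%, 53.5% and 83.6% of gated cells on days 3, 7 and 14, and all 3 chains in 30.9%, 34.3% and 66.4%. The share with any chain was lower on day 7 than on day 3, where the upper limit of day 7 (57.1%) lay below the lower limit of day 3 (57.98%). At least 3 of the other 7 genes were found together in 19.7% (16.0 to 23.7), 5.44% (3.97 to 7.26) and 13.4% (8.16 to 20.4). Cells with C1q but none of the other 7 made up 14.6%, 27.0% and 29.9%, and those with one of the other 7 but no C1q made up 14.9%, 7.85% and 2.24%. At this depth, cells in which only C1q was seen were thus more frequent on days 7 and 14 than on day 3. Those with a resident gene but no C1q seen were less frequent. A gene not seen at 1000 UMIs is not shown to be absent, so these are not states of cells. Stab1, for example, was seen in 71.0% of day 14 gated cells before thinning and in 28.4% after it. Mrc1 was seen in 48.5%, 27.4% and 28.6% of cells with C1q and in 21.5%, 5.99% and 4.55% of cells without it. Pf4 was seen in 50.4%, 26.7% and 41.1% of cells with C1q and in 21.5%, 5.99% and 0% of those without, the last being 0 of 22 cells. The cells of each day share 1 library, and these shares describe it.

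Across cells of at least 2000 UMIs, log-scaled C1qa correlated with C1qb at Pearson r 0.89, 0.94 and 0.93 and with C1qc at 0.90, 0.95 and 0.95 on days 3, 7 and 14. C1qa with Mrc1 gave 0.45, 0.51 and 0.41, and with Pf4 gave 0.45, 0.47 and 0.49. Among the resident genes, Stab1 and Pf4 gave 0.64, 0.58 and 0.51, Folr2 and Pf4 0.58, 0.52 and 0.64, and Folr2 and Cbr2 0.62 and 0.55 on days 3 and 7. Pearson r was thus higher between the C1q chains than between any of them and a resident gene. By Spearman rank, C1qa with C1qb gave 0.90, 0.93 and 0.77. Most resident genes had fewer UMIs than the C1q genes, which can lower r, and the part of this in the difference was not tested. The points are cells of 1 library each, so these values describe the libraries only.

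The gated cells were clustered again with the 10 genes left out, which gave 6 sub-clusters, called M0 to M5. M0 (345 cells) was led by Fn1 and Saa3, M1 (250) by the protease genes Ctsk and Mmp9 and by Acp5, M2 (130) by the interferon-induced genes Ifit3 and Ifit1, M3 (408) by Plac8, Cxcl9 and Il1b, M4 (64) by the cell cycle genes Ube2c and Top2a, and M5 (196) by Gdf15, Cxcl1 and Cd83. The platelet gene Ppbp and the haemoglobin gene Hbb-bs were also among the leading genes of M0, and their part in its Pf4 level was not tested. The smooth muscle genes Acta2 and Tagln were also among the leading genes of M1, which had the lowest median UMI count (5690). M0 made up 57.6% of gated cells on day 3, 9.79% on day 7 and 7.59% on day 14. M3 made up 12.8%, 42.1% and 8.28%, and M5 made up 1.14%, 14.5% and 51.0%. M0 was thus the most frequent sub-cluster on day 3, M3 on day 7 and M5 on day 14.

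Over all days together, C1qa was highest in M5 at 4497 CPM, followed by M1 at 3196, M2 at 2914, M4 at 2465, M0 at 1932 and M3 at 446.0. Pf4 was highest in M0 at 2721 CPM, followed by M4 at 1902, M2 at 1382, M5 at 1095, M1 at 444.4 and M3 at 16.5. The day 7 cell of 110620 UMIs lay in M4, with 35.5% of the Pf4 UMIs there, and without the top Pf4 cell of each sub-cluster Pf4 was at 2534 CPM in M0, 1302 in M4 and 1278.5 in M2, so the order of the latter was not settled. Over all days, Cbr2 was highest in M0 (237.6 CPM), followed by M2 (145.8) and M4 (125.3), and lowest in M3 (2.48). Mrc1 was close between M4 (801.3) and M0 (778.0), and Folr2 between M0 (172.0) and M2 (163.7). M3, the sub-cluster with the monocyte genes Plac8 and Ly6c2 among its leading genes, was the lowest over all days for 8 of the 10 members, and only Lyve1 and Cd163 were lower still in M1.

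These orders pool days that differ in level and in makeup, and they did not hold within each day. Among the 5 sub-clusters with at least 20 cells on day 3, C1qa was highest in M2, at 3267 CPM against 1888 in M0. Folr2 and Stab1 were also highest in M2 on day 3, at 285.7 and 756.1 CPM against 200.8 and 599.5 in M0. Pf4 and Cbr2 were highest in M0 on that day, at 3025 and 288.3 CPM, and Mrc1 in M4, at 1117. On day 7, C1qa was highest in M5, at 4541 CPM, and so was Stab1, at 461.1 against 413.1 in M0. Mrc1, Folr2 and Cbr2 were then highest in M4, at 551.0, 100.5 and 151.3 CPM in 24 cells. They were also higher in M5, at 502.6, 86.4 and 104.7 CPM, than in M0, at 385.1, 72.0 and 86.0. Without the top cell of each for the gene, they were close between M4 (487.9, 78.9 and 102.1 CPM) and M5 (465.6, 77.9 and 95.5). Pf4 was highest in M4 on day 7, at 2317.5 CPM against 1925 in M0, but without the top Pf4 cell of each the levels were 907.3 and 1166.5. Mrc1, Folr2, Stab1, Pf4 and Cbr2 thus stood highest in M0, M2 or M4 on day 3 and in M4 or M5 on day 7, Pf4 in M4 only with that cell kept. In M1, C1qa was at 1237 CPM on day 3, below M0, M2 and M4, and at 3398 on day 7, below M5 only, whereas Folr2 and Cbr2 were at 24.9 and 16.4 CPM on day 7.

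**Figure D4:**
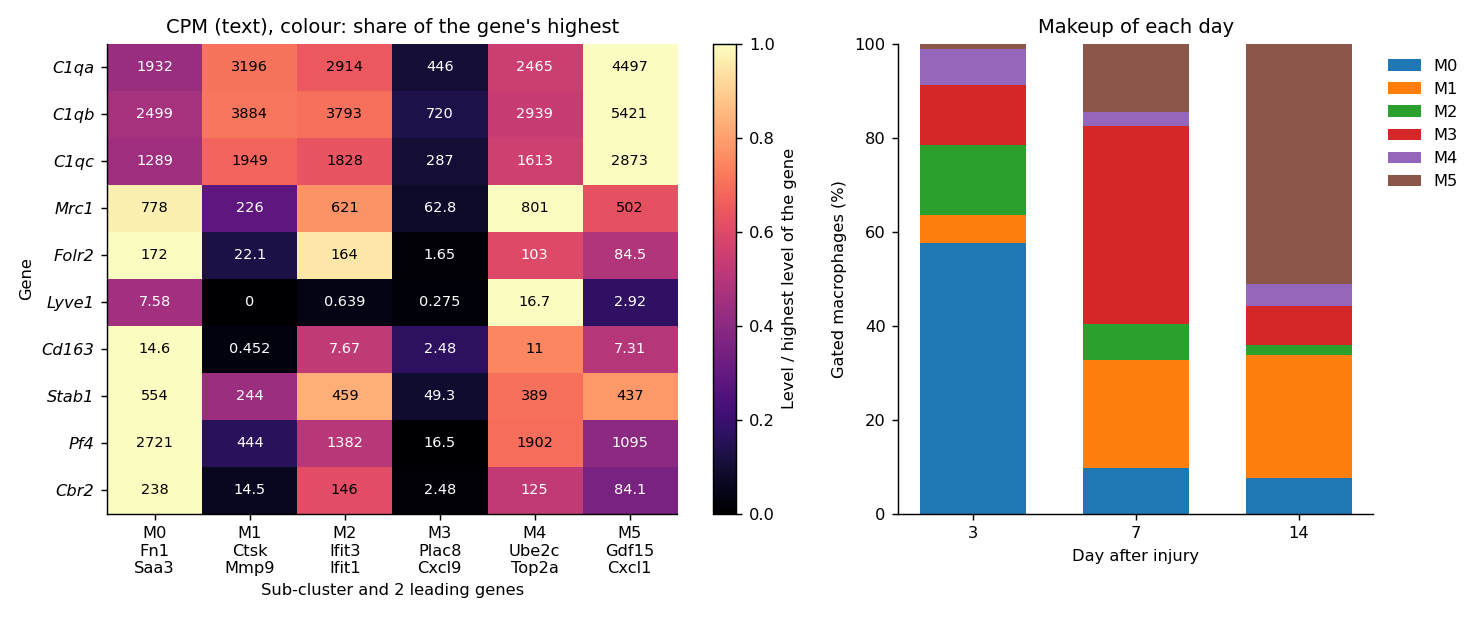
Left, CPM of each gene in the 6 sub-clusters of gated macrophages, all days pooled, coloured by the share of the gene's highest level. Right, the percent of gated cells of days 3, 7 and 14 in each sub-cluster. With days pooled, C1qa peaks in M5, which made up 51.0% of day 14, and Pf4 and Cbr2 in M0, which made up 57.6% of day 3, though on day 7 Cbr2 was higher in M4 and M5 than in M0 and Pf4 in M4. The pooled Cd163 peak in M0 includes 21 of 56 UMIs from 1 cell of day 0.

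Within sub-clusters, the ratios of day 7 to day 3 differed from one sub-cluster to another. In M0, the summed C1q level of day 7 was 0.927 times that of day 3 (0.898 to 0.957), with 79 and 253 cells, while Mrc1 was at 0.428 times (0.384 to 0.477), Folr2 at 0.359, Cbr2 at 0.298 (0.236 to 0.373), Pf4 at 0.636 and Stab1 at 0.689. A single cell held 794 of the 1924 Pf4 UMIs of day 7 in M0 (41.3%), and without the top Pf4 cell of each day the ratio was 0.399 (0.374 to 0.425). In M2, C1q was at 0.727 times (0.701 to 0.753), with 61 and 66 cells, while Mrc1 was at 0.340 times, Pf4 at 0.336, Stab1 at 0.195, Cbr2 at 0.134 and Folr2 at 0.128. Without the top cell of each day for the gene, the ratios in M2 were 0.237 for Pf4, 0.0879 for Cbr2 and 0.0849 for Folr2. In M3, C1q was at 0.837 times (0.777 to 0.903) and Mrc1 at 1.01 (0.692 to 1.53). In M3, 1 cell held 77 of the 226 C1qa UMIs of day 3, and without the top cell of each day the ratios were 1.30 for C1qa (1.1 to 1.56), 0.974 for C1qb (0.865 to 1.1) and 1.17 for C1qc (0.949 to 1.45), so the direction in M3 was not settled. In M0 and M2, C1q was lower on day 7 than on day 3, also without those cells, although it was higher over all gated cells. It was higher in M1, at 2.31 times (2.14 to 2.51), where day 3 had 26 cells, and in M4 at 1.85 times (1.79 to 1.92), where it had 33. In M1, 1 cell held 87 of the 196 C1qa UMIs of day 3, and without the top cell of each day the C1qa ratio went from 2.75 to 4.15. In M1, the intervals of Mrc1 (0.749, 0.550 to 1.04), Stab1 (1.26, 0.876 to 1.88) and Pf4 (0.990, 0.782 to 1.27) included 1. In M4, Mrc1 was at 0.493 times (0.441 to 0.551), Stab1 at 0.855 (0.736 to 0.992), Folr2 at 0.834 (0.622 to 1.116) and Cbr2 at 1.26 (0.968 to 1.63), and the Pf4 ratio went from 1.32 to 0.629 without the top cells. The lower day 7 level of the resident genes was thus not shared by each sub-cluster.

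From day 7 to day 14, the interval of the ratio of summed C1q included 1 within the 2 sub-clusters that had at least 20 cells on both days. The ratio was 1.02 in M5 (0.994 to 1.04; 117 and 74 cells) and 0.980 in M1 (0.940 to 1.02; 186 and 38 cells), beside ratios of 1.65 to 1.67 for the single chains over all gated cells. In M1 the chains differed, with C1qa at 3398 CPM on day 7 (3313 to 3485) and 3030 on day 14 (2832 to 3239). Without the top cell of each day for the gene, the M1 ratios were 0.856 for C1qa (0.792 to 0.924), 1.02 for C1qb (0.958 to 1.09) and 0.947 for C1qc (0.861 to 1.04). In M5 that of C1qa was 1.05 (1.01 to 1.09). Of the C1q UMIs of gated cells, M5 gave 38.2% on day 7 from 14.5% of cells and 65.1% on day 14 from 51.0% of cells. M0 gave 52.4% on day 3, and M3 gave 6.81% on day 7 from 42.1% of cells. In M5, Mrc1 was at 0.934 times on day 14 (0.826 to 1.05) and Folr2 at 1.01 (0.756 to 1.35), whereas Pf4 was at 0.733 (0.672 to 0.798) and Cbr2 at 0.424 (0.289 to 0.608).

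**Figure D5:**
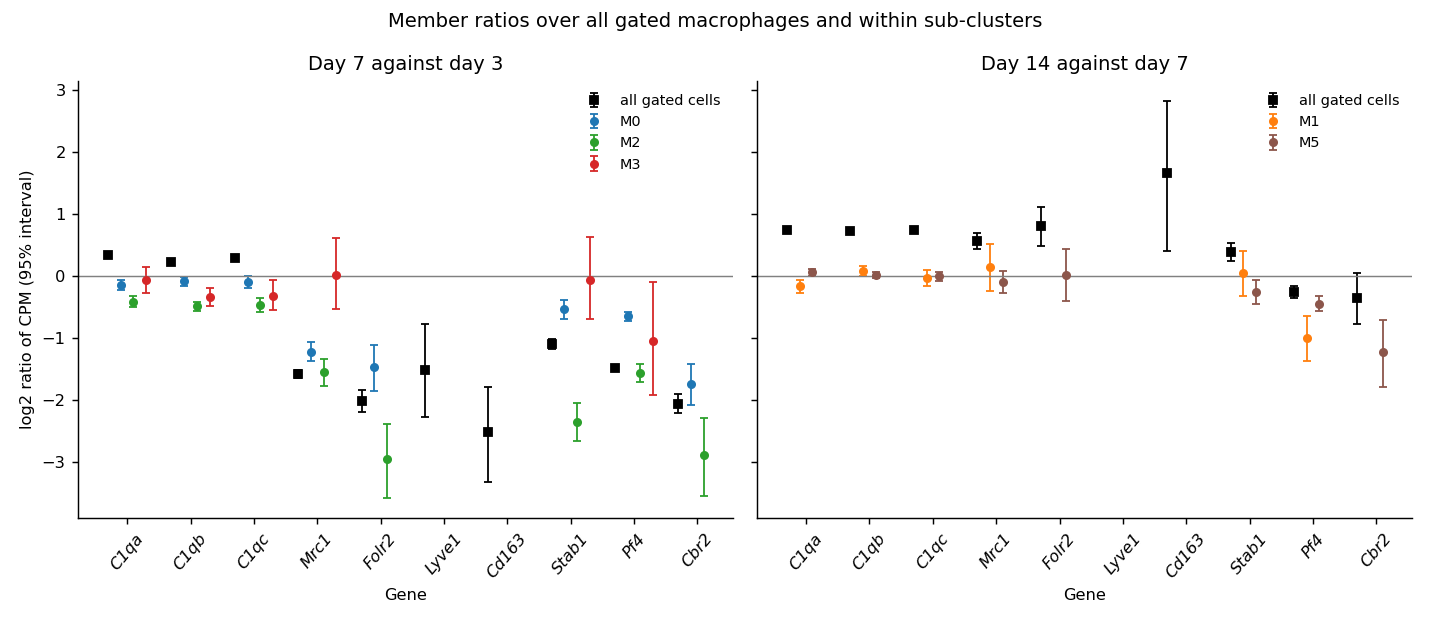
Log2 ratio of CPM with its 95% interval for each gene, day 7 against day 3 (left) and day 14 against day 7 (right), over all gated macrophages (black squares) and within sub-clusters (coloured points, genes with enough UMIs only). On the left, Mrc1, Folr2, Pf4 and Cbr2 lie below 0 in M0 and M2, with C1q close to 0 in M0. On the right, the C1q genes lie near 0 in M5 and M1 and above it over all gated cells.

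On day 0, 4 cells fell in monocyte/macrophage-like clusters and 2 of them passed the gate, so these values describe single cells. The first, with 10132 UMIs, held 59, 51 and 38 UMIs of C1qa, C1qb and C1qc, 20 of Mrc1, 21 of Cd163, 3 of Lyve1, 11 of Stab1, 30 of Pf4 and 8 of Cbr2, and none of Folr2. The other, with 6691 UMIs, held 43, 33 and 41 UMIs of the C1q genes, 2 of Mrc1, 1 of Folr2, 3 of Cd163 and 5 of Cbr2, and none of Lyve1, Stab1 or Pf4. Both carried C1q, and 1 of them carried 9 of the 10 genes. In that cell alone, Cd163 had 21 UMIs. The gated cell with the most Cd163 held 14 on day 3, 3 on day 7 and 4 on day 14. These were of 65 UMIs in 439 cells, 20 in 807 and 10 in 145. The 2 day 0 cells outside the gate had no Cd163 UMI, and 1 of them had 5, 14 and 5 UMIs of C1qa, C1qb and C1qc.

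Other genes of resident macrophages did not move as 1 group. Of a list of 26 such genes, 21 had enough UMIs, and 1 was higher and 5 lower from day 3 to day 7, 5 higher and 6 lower from day 3 to day 14, and 6 higher and 1 lower from day 7 to day 14 (median log2 ratios -0.15, 0.24 and 0.75). Of all genes tested, 1.26%, 2.51% and 0.773% were higher and 0.774%, 2.43% and 1.08% lower in these comparisons. Apoe, which encodes the lipid carrier apolipoprotein E, stood at 8344, 9860 and 19886 CPM on days 3, 7 and 14, and Ms4a7 at 435.3, 692.2 and 1443 CPM. Igf1, a growth factor, stood at 21.2, 51.6 and 171.6 CPM, and Hpgd, which degrades prostaglandins, at 22.1, 73.6 and 142.6. These 4 were called higher on day 14 than on day 3. F13a1, the A subunit of coagulation factor XIII, was lower, at 565.9, 145.1 and 133.0 CPM, and Selenop (792.7, 737.5 and 938.4) was not called. Within the list, Apoe, Ms4a7, Igf1 and Hpgd thus had their highest level on day 14, as C1q did, and F13a1 on day 3, as Cbr2 did. Timd4, Vsig4, Cd209f and Cd209g, named here after their values were seen, had 0 UMIs in gated cells on days 3, 7 and 14, for which 3 UMIs give limits of 0.578, 0.325 and 2.07 CPM. Other genes of the list were detected, with Siglec1 at 47.4, 13.4 and 15.2 CPM, and Cd209d at 7.51 and 6.94 and Fcna at 5.78 and 2.93 CPM on days 3 and 7. These 3 were likewise named after their values were seen.

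Of 22 partners, regulators and receptors of C1q and the complement system, 18, 16 and 17 had enough UMIs from day 3 to 7, day 3 to 14 and day 7 to 14, and 0 were higher while 2, 4 and 1 were lower (median log2 ratios -0.42, -0.63 and -0.19). Beside these stand 1.26%, 2.51% and 0.773% of all genes higher and 0.774%, 2.43% and 1.08% lower. Cfp, which encodes properdin, was at 509.5, 256.8 and 116.4 CPM on days 3, 7 and 14, and Itgam, a subunit of complement receptor 3, at 657.4, 276.6 and 191.5. Lrp1, a receptor for C1q-coated and calreticulin-bearing cells, was at 570.4, 257.0 and 223.2 CPM. All 3 were called lower on day 14 than on day 3, opposite to C1q. Calr, which encodes calreticulin, was at 728.5, 703.9 and 458.2 CPM, and C3ar1, the receptor for C3a, at 496.4, 248.3 and 365.2, and neither was called. The proteases that act with C1q were made elsewhere. C1ra was at 244.4 CPM and C1s1 at 327.1 in fibroblast-like cells, against 5.48 and 2.92 in monocyte/macrophage-like cells. The gene for their inhibitor, Serping1, was at 1270 against 5.18 CPM.

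Genes of recruited monocytes were lower on the later days. Of 14 listed, Ly6a2 was not found by that symbol, and of the 13 others 3 were lower from day 3 to day 7, 7 from day 3 to day 14 and 10 from day 7 to day 14, with none higher (median log2 ratios -0.07, -1.51 and -1.30). Over all genes, 0.774%, 2.43% and 1.08% were lower and 1.26%, 2.51% and 0.773% higher. Fn1, which encodes fibronectin, stood at 2699.5, 490.2 and 193.6 CPM, S100a4 at 2780, 1935 and 929.4, Vcan at 323.6, 103.4 and 4.13, and Chil3 at 229.2, 61.4 and 32.4. Plac8, at 516.8, 910.2 and 258.4 CPM, was highest on day 7, when M3 was the most frequent sub-cluster. Ccr2, the receptor that draws monocytes out of the blood, stood at 925.2, 591.2 and 545.0 CPM and was not called from day 3 to day 14.

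Markers of other cell types in the gated cells also differed between days. The 9 fibroblast genes summed to 386.8, 796.8 and 662.1 CPM on days 3, 7 and 14, the 7 neutrophil genes to 86.7, 186.1 and 42.7, and the 10 T cell genes to 1.35, 14.4 and 4.82. These 3 lists had their highest level on day 7. The platelet and haemoglobin genes given above had theirs on day 3, as Mrc1, Folr2, Stab1, Pf4 and Cbr2 did, and their part in these levels was not tested. With shallow copies of shared barcodes kept, the gate held 451, 803 and 147 cells on days 3, 7 and 14. C1qa was then at 1868, 2381 and 3930 CPM, Mrc1 at 840.0, 287.6 and 408.4, Pf4 at 2220.5, 818.2 and 685.0, and Cbr2 at 206.2, 51.2 and 39.6, close to the values above.

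The genes most like the members were sought over 24 units of cell class and day with at least 20 cells each, by Pearson's r of log2(CPM + 10). For the sum of the C1q genes these were Aif1 (0.963), Adap2 (0.962), Fcgr1 (0.962), Smagp (0.958), Trem2 (0.957), Csf1r (0.953), Lyz2 (0.952) and Gatm (0.946). For the sum of Folr2, Lyve1, Cbr2 and Cd163 they were Mertk (0.902), Cacna1d (0.886), Serpinb8 (0.865), Cltc (0.848), Prune2 (0.830), Gna12 (0.825), Tnfrsf11a (0.823) and Arhgef10l (0.813). The first list includes 2 of the gate genes. In the second sum, Cbr2 had 2552 UMIs over all kept cells, against 1429 of Folr2, 191 of Lyve1 and 164 of Cd163. Smooth muscle-like cells held 30.1% of the Cbr2 UMIs, so the second list is not one of likeness to macrophages alone. Units of a day share a library and classes differ in depth, so these values are a description of likeness across classes.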

How the data were processed

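Single-cell suspensions of carotid arteries from 4 time points, with 1 library each, were analysed. The deposited matrices hold raw counts, the number of UMIs per gene and barcode without normalization, limited to barcodes called as cells by the authors with Cell Ranger. Its version is 3.0.2 per the file headers and another one in the methods. The build is stated as a human one, so coordinates come only from the RefSeq GRCm38.p6 promoter set. Cell classes were rebuilt here and may differ from the annotation of the study.

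Barcodes with under 200 genes or over 20% mitochondrial UMIs were removed (453 of 6161). Scrublet's own threshold marked too few barcodes to be credible, so those with the highest scores were removed at 0.8% per 1000 barcodes of a library (106), as were 214 shallow copies of shared barcodes. With scanpy 1.11.5, scikit-learn 1.9.0, igraph 0.11.9, anndata 0.12.19, numpy 2.4.6, scipy 1.17.1 and python 3.11.15, 2000 variable genes, 30 principal components and 15 neighbours gave 49 Leiden clusters at resolution 1. A cluster was named when at least 3 markers of a class had 50 CPM, a UMI in 10% of its cells and 3 times the background level (20 CPM added), and a class with more markers among the 10 leading genes came first. Gated cells came from monocyte/macrophage-like or unnamed clusters. They were clustered again at resolution 0.5 with 20 components, without the members, the gate genes and the genes of the other lists.

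CPM was computed from UMIs summed over cells, with exact Poisson intervals, ratios with exact conditional binomial intervals, and shares with Clopper-Pearson intervals. A count of 0 allows up to 3. Thinning used 1000 UMIs per cell, and cell correlations needed 2000. Scripts were tested on simulated data.

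The members, the gene lists and the settings were chosen with earlier results of these data known. Genes outside the members are named by a rule, at most 4 of each list with the most UMIs in gated cells plus 3 with the largest ratio of day 14 to day 3, and the 8 genes most like each sum with at least 500 UMIs. Exceptions within the lists are C1ra, C1s1 and Serping1, and the genes said above to be named after their values were seen. Alternatives changed the gate, clustering, doublets, filters, weighting of cells, CPM added, UMI minimum and thinning depth. Results of some genes that this rule would name are not reported here.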

Additional observations from a re-analysis of the deposited data

How the results depend on the processing

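Over all gated cells, no member reversed its direction under the alternatives run in a comparison in which it was called. In comparisons without a call, Pf4 and Cbr2 from day 7 to day 14 kept their sign in 12 and 14 of 17 settings, and from day 3 to day 14 Stab1 in 16 of 17 and Cd163 in 15 of 16. The number of C1q genes called higher from day 3 to day 14 was 2, and became 0 when 3 of the 4 gate genes were required, and 1 with no doublet removal, at clustering resolution 0.5 or without cell cycle-led clusters. From day 7 to day 14 it was 0, and became 3 with the gate genes alone (cells of every class) and 3 when each cell's CPM was given equal weight (the mean over cells). Of the other 7 members, 4 were lower from day 3 to day 14, and 2 with the gate genes alone, 2 with gated dendritic-like cells kept and 2 with the mean over cells. None was higher from day 7 to day 14, but 4 were with the mean over cells and 1 with 1 CPM added, and with 1 CPM added 1 was lower. The cause of these changes was not tested.

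Over all genes, adding 1 CPM raised the counts of genes higher and lower from 142 and 87 to 529 and 325 (day 3 to 7), from 254 and 246 to 538 and 798 (day 3 to 14) and from 84 and 117 to 334 and 529 (day 7 to 14). The mean over cells gave 178 and 201 for day 7 to 14, and the gate genes alone gave 88 higher for day 3 to 7 and 372 lower for day 3 to 14. The gated share was 36.4%, 38.5% and 17.5% on days 3, 7 and 14 with 1 gate gene, 24.5%, 22.5% and 11.0% with 3, and 12.7%, 12.3% and 5.47% when cells were thinned to 1000 UMIs before gating (0% on day 0). Of the remaining values compared, 392 of the log2 ratios of single genes stayed within their interval and 111 moved, and 68 of the shares of cells with a UMI moved with the depth of thinning against 22 that stayed. Keeping shallow copies, and leaving out cells over 50000 UMIs, cells under 2000 UMIs, cell cycle-led clusters or the top cell of a gene in a sub-cluster, were chosen after seeing the data.

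Each day rests on 1 pool of arteries, so neither animals nor library preparation can be separated from day. No paired analysis was possible because each day has 1 library. Day 0 holds 2 gated cells. Lyve1 and Cd163 rest on few UMIs, and whether they are called depends on the CPM added. Cluster names and the border to dendritic-like cells set the gate.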
